A study of Bos taurus with 48 samples.

Results

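Nuclear genes for subunits of the mitochondrial respiratory chain were followed through the uterine lining of dairy cows killed on day 17. Members were taken by symbol: a probe of the array was counted when the gene name it was given, or the symbol closing its description, was that of a subunit of complex I (NDUFA, NDUFB, NDUFC, NDUFS and NDUFV genes), complex II (SDH), complex III (UQCR), complex IV (COX4 to COX8) or complex V (ATP5). The rule found 72 genes with 1 probe each, among 19874 genes and 21475 probes on the array. It used no measured value. By complex these were 34 genes of complex I, 4 of complex II, 5 of complex III, 13 of complex IV and 16 of complex V.

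The 44 samples came from 22 lactating Holstein-Friesian cows of mixed New Zealand and North American ancestry, all with synchronised oestrous cycles and all killed on day 17. Caruncular endometrium, where the placenta later attaches, and intercaruncular endometrium, which carries the uterine glands, were taken from every cow. The 12 pregnant cows had received a grade 1 embryo on day 7, and the 10 cyclic cows had received none. Among the pregnant cows 7 carried a large embryo (longer than 20 cm and heavier than 75 mg) and 5 a small one (shorter than 20 cm and lighter than 40 mg), and the labels call 6 of them fertile and 6 sub-fertile, without giving the basis of that class. On each 2-colour Agilent array the sample carried Cy5 and a common pool of all samples carried Cy3, with no dye swap. A level below is therefore the log2 ratio of a sample to the pool, a difference is one group's mean level less another's, and levels of different probes cannot be set against each other. Whole tissue was used, so fewer cells of a type and less RNA per cell cannot be told apart.

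The respiratory chain sits in the inner mitochondrial membrane. Complexes I and II pass electrons from NADH and succinate to ubiquinone, complex III passes them to cytochrome c and complex IV to oxygen, and complex V, the ATP synthase, uses the proton gradient that complexes I, III and IV build to make ATP. Most subunits are encoded in the nucleus, while a few central ones are encoded by mitochondrial DNA, so the complexes are assembled from products of both genomes. Some nuclear subunits of complex IV exist as alternative isoforms that differ between tissues, with COX7A1 known from heart and skeletal muscle and COX4I2 from lung and from cells short of oxygen. In the endometrium at this stage the conceptus is elongating and signals by interferon tau, and both the glands and the caruncles are remodelled.

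Part of the probe is shown for the 2 subunits of complex IV whose called levels moved most with pregnancy, to show what the array bound, followed by the probe of an isoform that lies outside the rule. Bases 10 to 39 of the 60-base COX7A1 probe and bases 22 to 51 of the COX6C probe are printed in the orientation of the array design, with the hexamer AATAAA, the usual polyadenylation signal, in capitals.
COX7A1: cgaacaggcatcAATAAAtgtgctggtttc
COX6C: aaatagtctctcAATAAAcaaacaattaac
COX4I2: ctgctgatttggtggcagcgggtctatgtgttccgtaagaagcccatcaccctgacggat
Both of the first probes thus hold the letters of that signal, and AATAAA was found in 13.6% of the 1689 probe sequences that the study lists, with its reverse complement in 4.44% of them. That list was chosen by the study on these samples. The COX4I2 probe holds no such hexamer. Forward reading frames without a stop codon numbered 1 in the COX4I2 probe, 2 in the COX7A1 probe and 0 in the COX6C probe. A match of 6 letters is a description and does not show where a transcript ends.

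Most probes of the members gave a bright signal, which bears on how well they were measured and not on how much transcript there was. Ranked by signal among the probes tested, the median member probe lay at the percentile 92.45. Of the 70 tested members 50 lay in the brightest of 5 equal bins of signal. Of the 72 member probes 70 were well above background in 44 of 44 samples. The other 2 were not tested. COX6A2, the heart and muscle isoform of a complex IV subunit, was above background in 5 samples, and UQCRB, a small subunit of complex III, in 26 samples, where its level ranged from -2.23 to 0.68 in caruncular tissue of cyclic cows and from -1.70 to 0.07 in intercaruncular tissue. The tested members were 34 of complex I (7 core and 27 accessory subunits), 4 of complex II, 4 of complex III, 12 of complex IV and 16 of complex V. Spots were saturated in 8 members, each in no more than 3 samples.

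The arrays differed in ways that touch every result below. From 68.8% to 84.0% of spots on an array were well above background. Arrays lay on 12 slides scanned on 3 dates: the first date held intercaruncular samples, the second caruncular samples, and the third both tissues of 2 cows, 1 pregnant (large embryo, sub-fertile) and 1 cyclic, with repeats of 4 caruncular samples. The median level of the 70 members in a sample ranged from -0.45 to 0.25, while the median over all probes of the brightest bin ranged from -0.09 to 0.01. In a repeated sample the SD of the difference between its 2 arrays was 0.08 to 0.17 over the members. Between cows of a group the median SD of a member was 0.26 in caruncular tissue of pregnant cows, 0.19 in that of cyclic cows, 0.23 in intercaruncular tissue of pregnant cows and 0.21 in that of cyclic cows.

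In caruncular endometrium a few subunits separated pregnant from cyclic cows, in both directions, and most did not. COX7A1, the muscle isoform of a complex IV subunit, rose 1.57-fold, and COX6C, a small nuclear subunit of the same complex, fell 1.55-fold. NDUFS5, an accessory subunit of complex I, fell 1.29-fold, and UQCRC1, a core protein of complex III, rose 1.18-fold. By limma, with p-values adjusted (Benjamini-Hochberg) across the 14690 probes tested, 11 of the 70 members were called at an adjusted p under 0.05, whereas 26.9% of all probes were called. Of these, 7 members were higher in pregnant cows (11.4% of all probes) and 4 were lower (15.4% of all probes). A change of at least 1.5-fold was called in 2 members, against 9.99% of all probes. The share of members called was thus below that of all probes. The median difference of the members was 0.04, that of all probes tested -0.04, and 45 of 70 members lay above 0 (43.1% of all probes).

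COX7A1 was the clearest riser. In caruncular tissue of cyclic cows its level ran from -0.83 over a median of -0.64 to -0.43, and in pregnant cows from -0.80 over -0.11 to 0.51. Of the 12 pregnant cows 11 lay above every cyclic cow, and 1 small-embryo cow lay among the cyclic ones. The difference was 0.65 (standard error (SE) 0.13, 95% interval 0.39 to 0.92, adjusted p = 0.000785). COX6C ran the other way. Its level in cyclic cows ran from 0.06 over 0.36 to 0.82 and in pregnant cows from -0.98 over -0.19 to 0.03, so that the groups did not overlap. The difference was -0.63 (SE 0.11, interval -0.86 to -0.40, adjusted p = 0.000265).

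Complex I held 7 of the called members, all of them accessory subunits, which surround the catalytic core and are needed for assembly and stability. NDUFS5 ran from 0.00 over 0.07 to 0.26 in cyclic cows and from -0.57 over -0.25 to -0.0014 in pregnant cows, again without overlap (difference -0.36, SE 0.06, adjusted p = 0.000233). NDUFC2 and NDUFB2, both of the membrane arm, fell as well. The difference of NDUFC2 was -0.25 (SE 0.08, adjusted p = 0.030), and that of NDUFB2 was -0.25 (SE 0.08, adjusted p = 0.0184). NDUFS4, an accessory subunit of the matrix arm, rose by 0.34 (SE 0.11, adjusted p = 0.023). NDUFA5 rose by 0.32 (SE 0.11, adjusted p = 0.0304) and NDUFV3, at the NADH-oxidising end, by 0.29 (SE 0.09, adjusted p = 0.0232). NDUFB8 rose by 0.29 (SE 0.09, adjusted p = 0.0237). None of the 7 core subunits tested was called, with differences from -0.11 to 0.22.

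In complex III UQCRC1 ran from -0.75 over -0.52 to -0.33 in cyclic cows and from -0.57 over -0.31 to 0.05 in pregnant cows, which overlapped (difference 0.23, SE 0.08, adjusted p = 0.0252). All 4 tested members of complex III lay above 0. In complex V ATP5G1, which codes for the c subunit of the rotating membrane ring, rose by 0.20 (SE 0.07, adjusted p = 0.0346), and the other 15 were not called, with differences from -0.19 to 0.32. None of the 4 subunits of complex II was called. SDHA, the flavoprotein that oxidises succinate, differed by 0.10 (SE 0.07, adjusted p = 0.283) and SDHB, the iron-sulphur subunit, by -0.07 (SE 0.08, adjusted p = 0.57). For the membrane anchors the values were -0.03 (SE 0.10, adjusted p = 0.845) in SDHC and 0.02 (SE 0.10, adjusted p = 0.923) in SDHD.

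**Figure D1:**
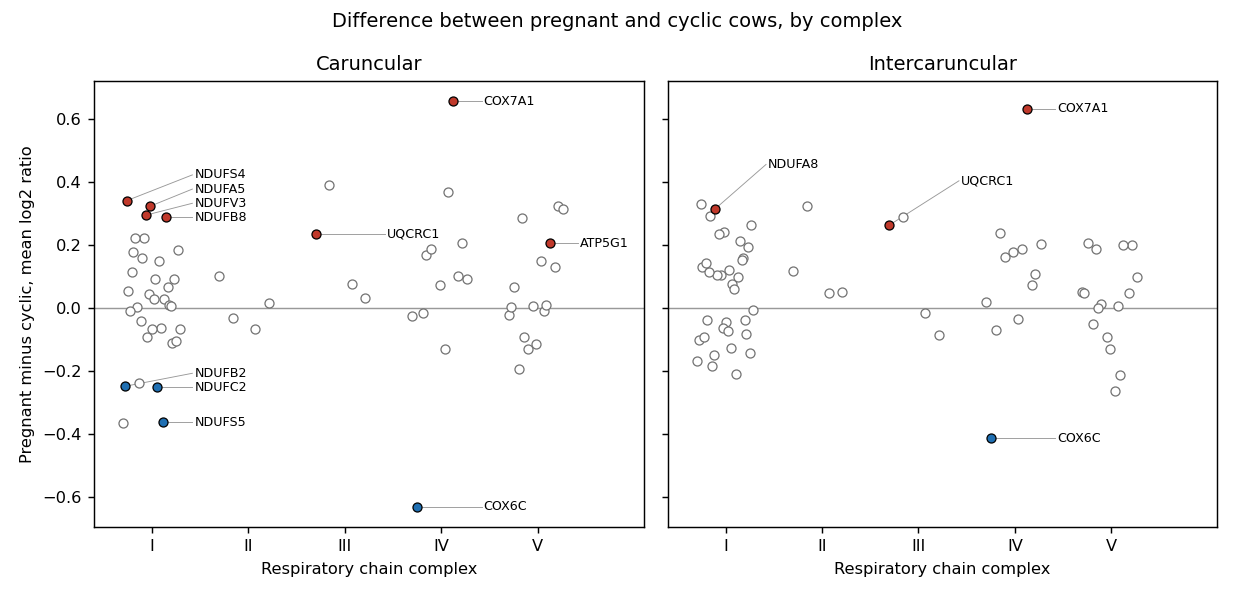
Difference between pregnant and cyclic cows of each of the 70 tested subunits on the log2 scale, by complex, in caruncular and intercaruncular endometrium. Each point is 1 subunit and filled points are those called at an adjusted p under 0.05. Most points lie near 0, with COX7A1 at 0.65 and 0.63 and COX6C at -0.63 and -0.41 farthest out among the called ones.

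In intercaruncular endometrium 4 of 70 members were called, against 20.3% of all probes. COX7A1 rose 1.55-fold, NDUFA8 1.24-fold and UQCRC1 1.20-fold, while COX6C fell 1.33-fold. The 3 risers compare with 9.24% of all probes called higher, the single faller with 11.1% called lower, and the 1 member changed at least 1.5-fold with 7.24%. The median difference was 0.07 over the members and -0.01 over all probes tested, and 44 of 70 members lay above 0 (47.5% of all probes). Of the members called in caruncular tissue, COX7A1, COX6C and UQCRC1 were also called here in the same direction, which is 27.3% of the caruncular and 75% of the intercaruncular list.

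COX7A1 ran from -1.27 over -0.55 to -0.36 in intercaruncular tissue of cyclic cows and from -0.48 over 0.03 to 0.35 in pregnant cows. The 9 highest of the 12 lay above all cyclic cows (difference 0.63, SE 0.13, adjusted p = 0.00172). COX6C ran from 0.06 over 0.42 to 0.68 in cyclic and from -0.75 over 0.07 to 0.43 in pregnant cows (difference -0.41, SE 0.12, adjusted p = 0.0146). Of the 12 pregnant cows 6 lay below every cyclic cow, so the groups overlapped here. NDUFA8, an accessory subunit of complex I, ran from -0.65 over -0.52 to -0.36 in cyclic and from -0.48 over -0.23 to 0.21 in pregnant cows, where 10 of 12 exceeded all cyclic cows (difference 0.31, SE 0.08, adjusted p = 0.00997). In caruncular tissue its difference was 0.16 (SE 0.08, adjusted p = 0.162). UQCRC1 ran from -0.74 over -0.52 to -0.38 in cyclic and from -0.53 over -0.27 to 0.07 in pregnant cows (difference 0.26, SE 0.08, adjusted p = 0.0216). Complexes II and V had no called member in this tissue. In complex II the differences were 0.12 in SDHA (adjusted p = 0.291), 0.05 in SDHB (adjusted p = 0.761), 0.32 in SDHC (SE 0.14, adjusted p = 0.106) and 0.05 in SDHD (adjusted p = 0.75).

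**Figure D2:**
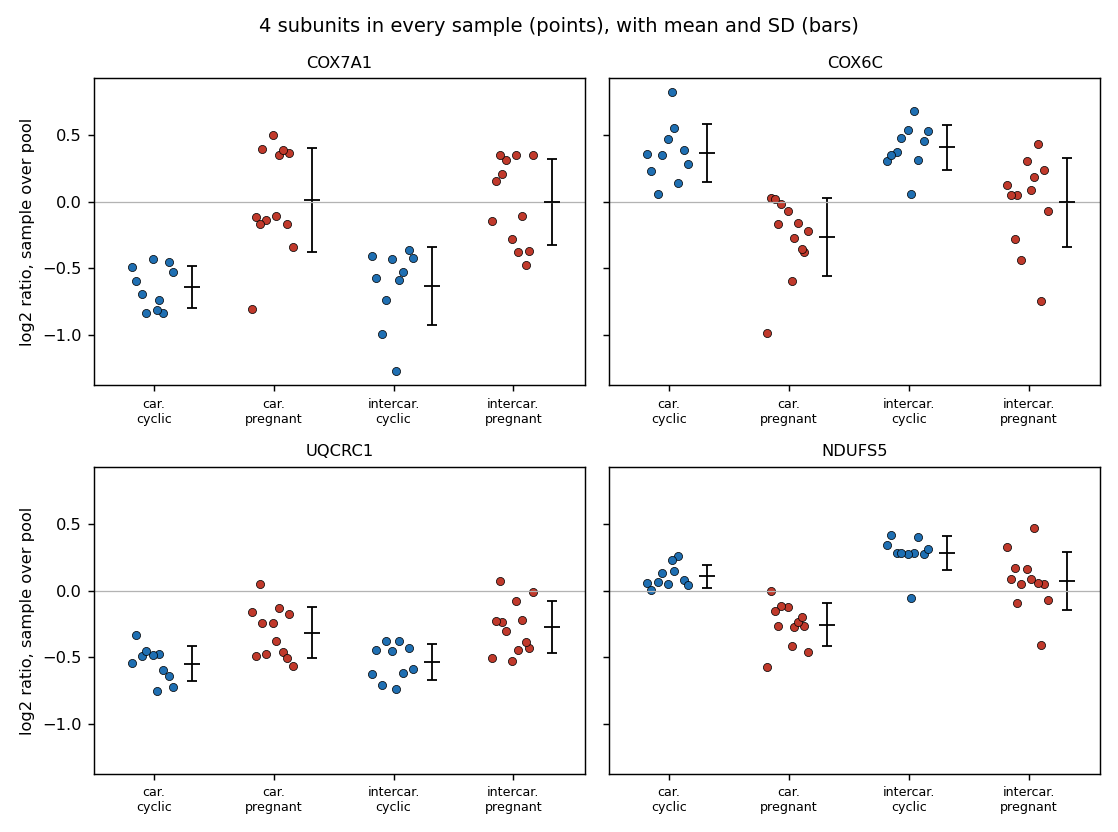
Log2 ratio to the pool of COX7A1, COX6C, UQCRC1 and NDUFS5 in every cow, for cyclic and pregnant cows in caruncular and intercaruncular endometrium, with the mean and SD of each group. In caruncular tissue 12 of 12 pregnant cows lie below every cyclic cow for COX6C and NDUFS5, and 11 of 12 lie above every cyclic cow for COX7A1.

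The pregnancy calls depended on how slides were treated. Apart from the third scan date, slides held cows of 1 state, except 1 slide per tissue with 3 pregnant cows and 1 cyclic cow. Within that slide 11 of the 11 called members in caruncular tissue and 4 of the 4 in intercaruncular tissue had the same direction, with COX7A1 higher by 0.29 and 0.33. Between the pregnant and the cyclic cow of the third scan date 8 of the 11 and 3 of the 4 had it, while NDUFA5 (-0.25), NDUFB8 (-0.12) and NDUFS4 (-0.03) turned in caruncular and NDUFA8 (-0.07) in intercaruncular tissue. All these cows were also among those that gave the calls. With the slide as a random block 4 members were called in caruncular tissue (COX7A1, COX6C, NDUFS5 and NDUFB2), where 15.5% of all probes were then called, and only COX7A1 in intercaruncular tissue, where 6.95% were. With a fixed term for each slide, which rests on those single slides, none was called. Without the 2 cows of the third scan date, a choice made after seeing the data, the counts were 19 members in caruncular tissue (14 higher and 5 lower, where 30.9% of all probes were called, 13.3% higher and 17.6% lower) and 11 in intercaruncular tissue (8 higher and 3 lower, where 24.8% were called, 11.7% higher and 13.1% lower), including all of those called with them. Among the members added in caruncular tissue were UQCRFS1, the Rieske protein of complex III (0.49), COX5A (0.46) and NDUFA1 (-0.43). The 4 caruncular samples repeated on the third scan date stayed in as averages of both arrays, so some data of that date remained.

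Whether pregnancy changed a member unequally in the 2 tissues was tested as an interaction over the 44 samples, without a term for cow. No member was called, against 0.0204% of all probes. At an unadjusted p under 0.05 there were 2 members by limma, where 7.37% of all probes passed. They were NDUFB11, an accessory subunit of complex I (caruncular effect less intercaruncular effect -0.20, SE 0.09, adjusted p = 0.603), and ATP5H, the d subunit of the ATP synthase stalk (0.41, SE 0.18, adjusted p = 0.605). For NDUFS5, called in caruncular tissue alone, the difference of the effects was -0.16 (interval -0.36 to 0.05, adjusted p = 0.846), and for COX7A1 it was 0.02 (interval -0.35 to 0.40).

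In 3 isoform pairs the called changes lay in 1 partner. COX7A2, the ubiquitous partner of COX7A1, differed by 0.19 between pregnant and cyclic cows in caruncular tissue (SE 0.15, adjusted p = 0.364) and by 0.16 in intercaruncular tissue (SE 0.18, adjusted p = 0.552). COX4, now named COX4I1, is the common form of the largest nuclear subunit of complex IV, and it differed by -0.03 (interval -0.15 to 0.10, adjusted p = 0.789) and by 0.02 (interval -0.12 to 0.15, adjusted p = 0.874). Its partner COX4I2, outside the rule, fell 1.91-fold in caruncular tissue (difference -0.94, SE 0.16, adjusted p = 0.000156) and 1.98-fold in intercaruncular tissue (difference -0.99, SE 0.20, adjusted p = 0.00125). COX4I2 ran from -0.05 over 0.73 to 1.05 in caruncular tissue of cyclic cows and from -0.94 over -0.33 to 0.40 in pregnant cows.

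The third pair is NDUFA4, a subunit now counted with complex IV, and NDUFA4L2. NDUFA4 differed by 0.10 in caruncular tissue (interval -0.14 to 0.34, adjusted p = 0.547) and by 0.07 in intercaruncular tissue (interval -0.20 to 0.35, adjusted p = 0.742). NDUFA4L2, outside the rule and known to be induced when oxygen is short, fell 1.90-fold in caruncular tissue (difference -0.93, SE 0.13, adjusted p = 1.32e-05) and 2.35-fold in intercaruncular tissue (difference -1.23, SE 0.12, adjusted p = 1.08e-07). Its level ran from 0.36 over 1.01 to 1.40 in intercaruncular tissue of cyclic cows and from -0.58 over -0.29 to 0.12 in pregnant cows, and 12 of 12 pregnant cows lay below every cyclic cow in both tissues. A test of one isoform against its partner was not made. COX6A2 could not be set against COX6A1, which the rule did not find on the array.

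**Figure D3:**
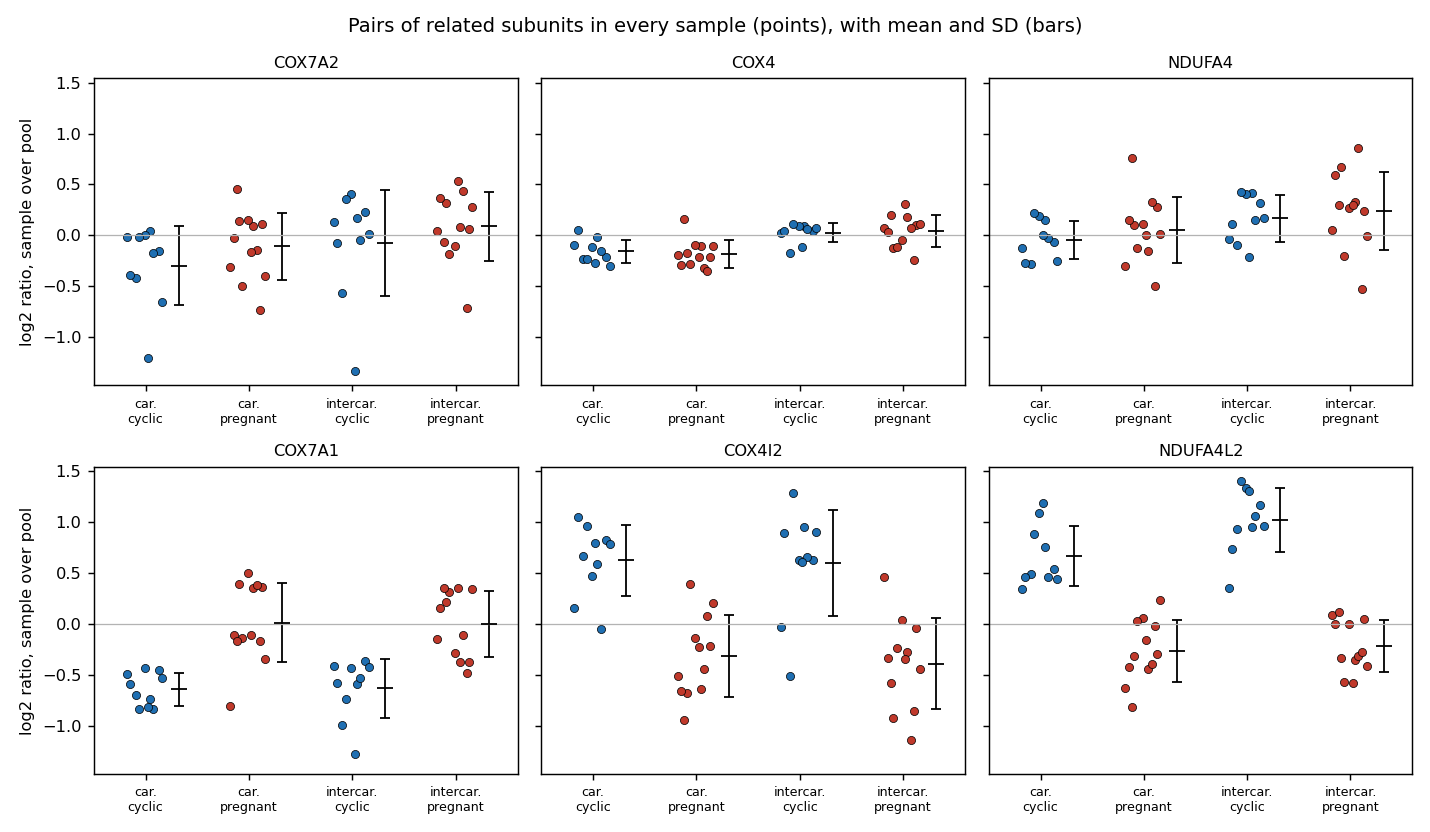
Log2 ratio to the pool of 3 isoform pairs (COX7A2 with COX7A1, COX4 with COX4I2, NDUFA4 with NDUFA4L2) in every cow, by state and tissue. The common forms overlap between cyclic and pregnant cows, while COX7A1 is higher and COX4I2 and NDUFA4L2 are lower in pregnant cows.

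Markers of other cells moved with these changes. Beside the counts that follow, 15.4% of all probes fell in caruncular and 11.1% in intercaruncular tissue. Of 8 probes for smooth muscle genes 6 fell in pregnant cows in each tissue, with CNN1 at -1.37 and -1.35. The mean level of that list ran from -0.34 to 1.04 in caruncular tissue of cyclic cows and from -1.19 to 0.55 in pregnant cows, and from -0.85 to 0.74 and from -1.49 to 0.14 in intercaruncular tissue. All 8 probes were above background. Of 7 endothelial probes 3 fell in caruncular and 4 in intercaruncular tissue, none rose, and PECAM1 was at -1.29 and -1.52. The mean level of that list ran from -0.35 to 0.60 in cyclic and from -0.58 to 0.43 in pregnant cows in caruncular tissue, and from -0.05 to 0.71 and from -0.57 to 0.13 in intercaruncular tissue. Of 10 probes for skeletal and heart muscle genes 2 were tested, neither was called, and 2 were never above background. COX7A1 thus rose where the smooth muscle list fell, while COX4I2 and NDUFA4L2 fell with the smooth muscle and endothelial lists. The part of these cells in the results was not tested.

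The remaining lists bear on the labels and on other cells. Among all probes 11.4% rose and 15.4% fell in caruncular tissue, and 9.24% rose and 11.1% fell in intercaruncular tissue. All 5 interferon-stimulated genes rose in pregnant cows in both tissues, with median differences of 4.32 and 2.64. Of 13 leukocyte probes 4 rose and 0 fell in caruncular tissue, and 3 rose and 1 fell in intercaruncular tissue. Epithelial probes were split, with 2 of 9 higher and 2 lower in caruncular tissue and 3 higher in intercaruncular tissue, and of 11 stromal probes 2 rose and 1 fell, and 2 rose and 4 fell. Ciliated epithelium had 1 of 4 probes lower in caruncular tissue and 0 called in intercaruncular tissue, and the only red cell probe tested was not called. Of 12 probes for trophoblast genes 3 were tested and none was called. Among its placental genes PAG11 and PRP1 were never above background, and PAG2, CSH1, TKDP1 and TKDP4 were so in at most 3 samples. Of the 2 PAG1 probes 1 was above background in 24 of 24 pregnant and 20 of 20 cyclic samples and the other in 9 and 4.

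Transcripts of mitochondrial DNA, which the rule does not cover, had lower means in pregnant cows, and few of them were called. There were 13 of them, 1 probe each, and their differences between pregnant and cyclic cows were all below 0 in both tissues, with medians of -0.66 and -0.64 and ranges of -1.13 to -0.09 and -1.04 to -0.05. In caruncular tissue 3 of 13 were called lower, against 15.4% of all probes, and in intercaruncular tissue 2 of 13, against 11.1%. CYTB, the cytochrome b of complex III, fell 2.20-fold (difference -1.13, SE 0.34, adjusted p = 0.016) and 2.06-fold (difference -1.04, SE 0.24, adjusted p = 0.00381). Its level ran from -0.09 over 1.01 to 3.33 in cyclic and from -1.12 over -0.07 to 1.55 in pregnant cows in caruncular tissue. The 3.33 was that of the cyclic cow of the third scan date, and the next highest cyclic cow lay at 1.48. The cyclic cow of the third scan date was also highest in intercaruncular tissue, at 3.01. In caruncular tissue the SD between cows was 0.90 in cyclic cows, with that cow included, and 0.77 in pregnant cows. The highest SD of any tested nuclear member there was 0.48 in cyclic and 0.50 in pregnant cows. Alternatives with slide as a block or without a cow were not counted for these transcripts.

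Others of the 13 were called in 1 tissue only. COX2, a catalytic subunit of complex IV, fell by 0.78 (SE 0.19, adjusted p = 0.00502) in caruncular tissue, and in intercaruncular tissue its value was -0.44 (adjusted p = 0.0818). ND5, a proton-pumping core subunit of complex I, fell by 1.06 (SE 0.30, adjusted p = 0.0123) in caruncular tissue, and ND4 fell by 0.72 (SE 0.25, adjusted p = 0.0416) in intercaruncular tissue. COX1, the other catalytic subunit of complex IV, had values of -0.22 (interval -0.74 to 0.31) and -0.19 (interval -0.75 to 0.37). The median level of the 13 ranged from -0.54 to 1.69 in caruncular tissue of pregnant cows and from -0.07 to 1.37 in that of cyclic cows. The 13 are read from the same small genome in the same samples, so they are not independent observations.

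Other chain genes whose names the rule does not match also changed. ATPIF1, the inhibitor of the ATP synthase, rose by 0.53 (SE 0.13, adjusted p = 0.00507) in caruncular and by 0.58 (SE 0.12, adjusted p = 0.00154) in intercaruncular tissue. COX7A2L, a relative of COX7A2 that helps join complexes III and IV, rose by 0.22 (SE 0.07, adjusted p = 0.0272) and by 0.41 (SE 0.08, adjusted p = 0.00155). USMG5, a small membrane subunit of the ATP synthase, fell by 0.59 (SE 0.17, adjusted p = 0.0189) in intercaruncular tissue and differed by 0.05 in caruncular tissue. Cytochrome c (CYCS) differed by 0.40 (adjusted p = 0.0505) and 0.15, and CYC1 by 0.21 (adjusted p = 0.109) and 0.17. Of the 22 genes of this list 2 rose and 5 fell in each tissue. The shares of all probes were 11.4% higher and 15.4% lower in caruncular and 9.24% and 11.1% in intercaruncular tissue.

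Among genes that serve the chain, the called assembly factors rose and the called regulators of biogenesis went both ways. Of all probes 11.4% rose and 15.4% fell in caruncular tissue, and 9.24% rose and 11.1% fell in intercaruncular tissue. Of 19 probes for assembly factors 4 rose and 0 fell in caruncular tissue and 2 rose and 0 fell in intercaruncular tissue. SCO1, a copper chaperone of complex IV, rose by 0.66 (adjusted p = 0.0256) and 0.64 (adjusted p = 0.0134), NUBPL, which delivers iron-sulphur clusters to complex I, by 0.28 and 0.36, and ATPAF1, an assembly factor of the ATP synthase, by 0.32 in caruncular tissue. Of 20 probes for regulators of mitochondrial biogenesis 2 rose and 5 fell, and 1 rose and 3 fell. TFAM, which packages and transcribes mitochondrial DNA, rose by 0.68 (adjusted p = 0.000511) and 0.43 (adjusted p = 0.0139). TFB1M, a methyltransferase of the mitochondrial ribosome, fell by 0.35 and 0.34, and POLG, the mitochondrial DNA polymerase, fell by 0.19 in caruncular tissue. PPRC1 fell by 0.39 and 0.36, and PPARD by 0.54 in intercaruncular tissue. The 2 probes of GABPB2 went opposite ways in caruncular tissue, at -0.54 and 0.31, both called.

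Enzymes that feed the chain gave a mixed list too. The same shares of all probes apply, 11.4% higher and 15.4% lower in caruncular and 9.24% and 11.1% in intercaruncular tissue. Of 24 probes for the citrate cycle and pyruvate oxidation 4 rose and 3 fell in caruncular tissue and 3 rose and 2 fell in intercaruncular tissue. DLAT, a subunit of pyruvate dehydrogenase, rose by 0.93 (adjusted p = 0.00038) and 0.67 (adjusted p = 0.00217). IDH3B rose by 0.23 in caruncular and DLST by 0.77 in intercaruncular tissue. PDK2, the kinase that holds pyruvate dehydrogenase inactive, fell by 0.43 (adjusted p = 0.00139) and 0.36, SUCLA2 by 0.30 and 0.26, and pyruvate carboxylase (PC) by 0.40 in caruncular tissue. Of 18 glycolysis probes 2 rose and 2 fell in caruncular tissue and 1 rose in intercaruncular tissue. PGK1 rose by 0.48 and 0.36 and ENO3 by 0.27 in caruncular tissue, where LDHB fell by 0.33 (adjusted p = 0.000737) and HK1 by 0.30. Of 17 probes for mitochondrial carriers, porins and antioxidant enzymes 2 rose and 4 fell, and 1 rose and 1 fell. SLC25A5, an ADP/ATP carrier, rose by 0.93 (adjusted p = 0.00376) and 0.67, and SLC25A3, the phosphate carrier, by 0.71 in caruncular tissue. GPX4 fell by 0.32 and 0.52, and PRDX5 by 0.36 and CKMT2 by 0.44 in caruncular tissue.

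Between the tissues more subunits were called than with pregnancy, most of them lower in caruncular endometrium, at a share below that of all probes. In cyclic cows 17 of 70 members were called, 4 higher and 13 lower in caruncular tissue, against 33.5% of all probes called, 16.3% higher and 17.2% lower. In pregnant cows 19 were called, 6 higher and 13 lower, against 48.5% of all probes, 23% higher and 25.5% lower. Called lower were 18.6% of the members in each state. That is close to the share of all probes in cyclic cows and below it in pregnant cows. A difference of at least 1.5-fold was called in 1 member in cyclic and 0 in pregnant cows, against 11.9% and 17% of all probes. The median difference of the members was -0.06 in cyclic and -0.07 in pregnant cows, against -0.02 in both over all probes tested. The 2 lists shared 9 members, all in the same direction, which is 52.9% of the cyclic and 47.4% of the pregnant list.

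The tissues were scanned on different dates, apart from the 2 cows of the third date. In these 2 cows, with both tissues on 1 slide, only 13 (pregnant cow) and 12 (cyclic cow) of the 27 members called in either state had the called direction, and the median of the members was -0.08 and 0.09. With only the arrays of the third scan date, in a single fit over both states, no member was called. Tissue and scan date cannot be told apart for the other cows, and the values that follow are those of the tissues as scanned.

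ATP5H, the d subunit of the stalk that holds the ATP synthase head, differed most in cyclic cows. It ran from -0.25 over -0.07 to 0.29 in caruncular and from -0.06 over 0.79 to 1.07 in intercaruncular tissue (difference -0.74, SE 0.12, adjusted p = 0.000169). The intercaruncular sample at -0.06 was that of the cyclic cow of the third scan date, whose 2 tissues differed by 0.15. In pregnant cows the difference was -0.33 (SE 0.13, adjusted p = 0.042). By signal the ATP5H probe lay at the percentile 29.3 of the probes tested, below most members. ATP5O, the subunit that joins stalk and head, was lower by 0.54 in cyclic cows (SE 0.10, adjusted p = 0.000663), with a difference of -0.32 in pregnant cows (adjusted p = 0.0394). Further subunits of complex V were ATP5J, lower in cyclic cows (-0.28, adjusted p = 0.00794), and ATP5I, lower in pregnant cows (-0.38, SE 0.10, adjusted p = 0.00375). The c subunit gene ATP5G1 was higher in caruncular tissue in both states (0.22, adjusted p = 0.00443, and 0.23, adjusted p = 0.0446), and ATP5D, of the central stalk, was higher in pregnant cows (0.25, adjusted p = 0.0177).

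In complex I the core subunit NDUFS3 ran from -0.26 over -0.12 to -0.03 in caruncular and from -0.08 over 0.17 to 0.29 in intercaruncular tissue of cyclic cows. NDUFS3 was thus among the lower members in cyclic cows (-0.29, SE 0.06, adjusted p = 0.00113). Accessory subunits lower in both states were NDUFS5 (-0.17 and -0.33), NDUFS6 (-0.46 and -0.35) and NDUFB7 (-0.40 and -0.31). In cyclic cows alone NDUFB8 (-0.26, adjusted p = 0.0159) and NDUFB9 (-0.23, adjusted p = 0.0369) were called lower, and in pregnant cows alone NDUFB10 (-0.26, adjusted p = 0.00345), NDUFB2 (-0.21), NDUFA1 (-0.36) and NDUFC1 (-0.35). A difference between the states in these tissue effects was not called for any of them.

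Some members of complex I were higher in caruncular tissue. NDUFB5 was so in both states, by 0.37 (SE 0.09, adjusted p = 0.00276) and 0.27 (adjusted p = 0.00592). NDUFA2 was higher in cyclic cows (0.25, adjusted p = 0.0286). NDUFS1, the largest core subunit, was higher in pregnant cows (0.35, SE 0.12, adjusted p = 0.0227), as was NDUFV3 (0.22, adjusted p = 0.0293).

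In complex II SDHC, a membrane anchor, was higher in caruncular tissue of cyclic cows (0.39, SE 0.11, adjusted p = 0.00828), and its difference in pregnant cows was 0.04. SDHA was lower in caruncular tissue of pregnant cows (-0.20, SE 0.07, adjusted p = 0.0203), with -0.18 in cyclic cows (adjusted p = 0.053). SDHB had values of 0.01 and -0.11 (adjusted p = 0.968 and 0.212) and SDHD of 0.04 and 0.00 (adjusted p = 0.753 and 0.975). UQCRC2, a core protein of complex III, was lower in cyclic cows (-0.35, adjusted p = 0.0122). In complex IV COX4 (-0.18 and -0.23) and COX8 (-0.27 and -0.21) were lower in both states, and COX6B2, the testis isoform, was higher in pregnant cows (0.15, adjusted p = 0.0195). Neither isoform of COX7A was called between the tissues.

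**Figure D4:**
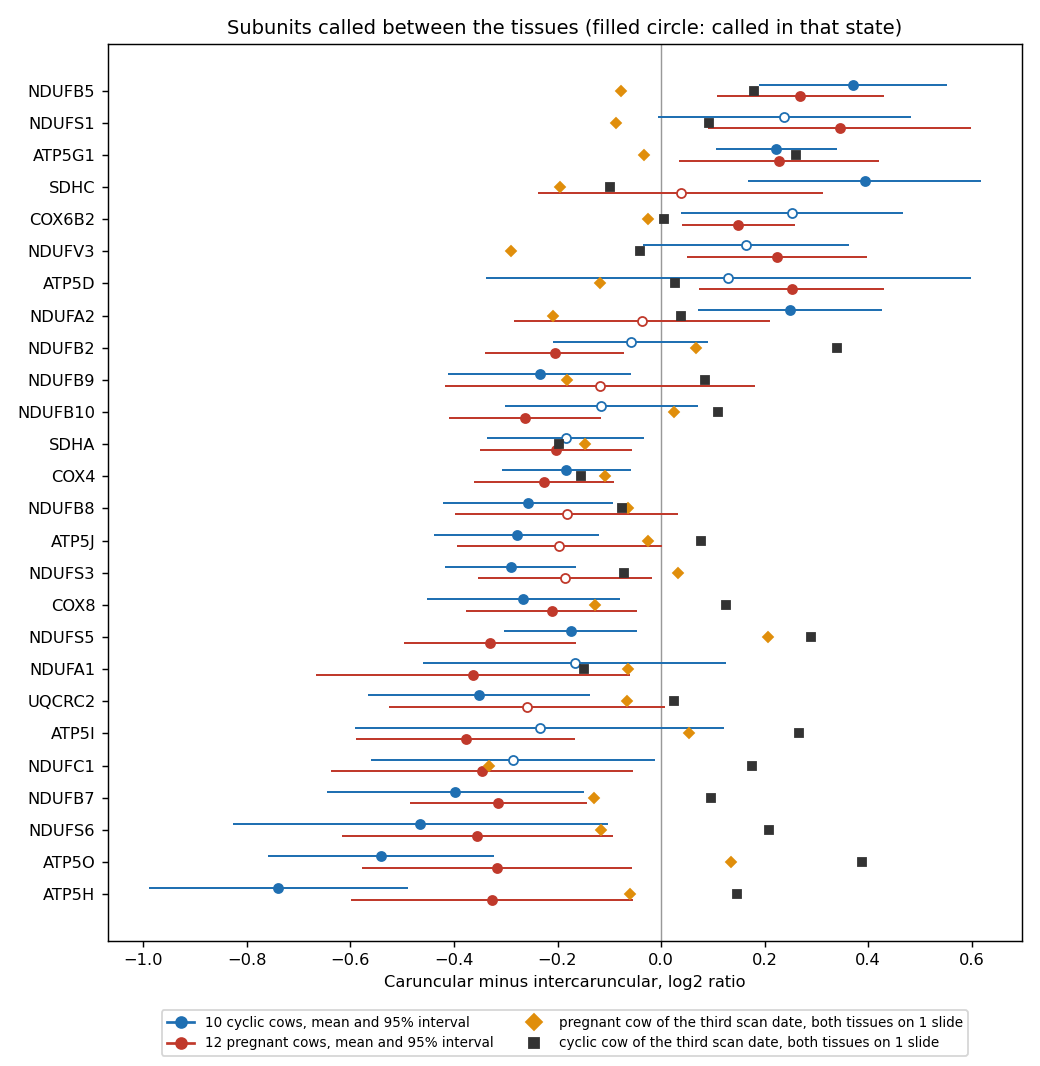
Caruncular less intercaruncular level on the log2 scale of 26 of the 27 subunits called in cyclic or pregnant cows, with both states shown, and the same difference within the pregnant (orange diamond) and the cyclic cow (dark square) of the third scan date, whose tissues shared 1 slide. The called differences run from -0.74 to 0.39, and in the 2 cows 13 and 12 of the 27 have the called direction.

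The tissue values above came from fits that did not pair the tissues by cow. When each cow was set against herself, with the cow as a fixed block, 30 members were called in cyclic cows. Of these 7 were higher and 23 lower, where 54.1% of all probes were called, 26% higher and 28.1% lower. In pregnant cows 32 were called, 6 higher and 26 lower, where 61.5% of all probes were called, 29.1% higher and 32.3% lower. A random effect of slide left 4 and 6 called, against 10.5% and 35% of all probes in the same fits. In cyclic cows ATP5H, NDUFS3, NDUFB5 and ATP5G1 were then still called, and in pregnant cows NDUFB7, NDUFB10, NDUFS5, NDUFB5, ATP5I and COX4.

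Cell type markers differed between the tissues in the same samples. Of all probes 16.3% were higher and 17.2% lower in caruncular tissue of cyclic cows, and 23% and 25.5% in pregnant cows. In pregnant cows 7 of 9 epithelial probes were lower and 1 higher in caruncular tissue, 4 of 4 ciliated cell probes were lower, 10 of 11 stromal probes were higher and 4 of 8 smooth muscle probes were higher. In cyclic cows these were 4 of 9 lower, 2 of 4 lower, 6 of 11 higher and 2 of 8 higher. The mean level of the epithelial list ran from -1.45 to 0.08 in caruncular and from -0.28 to 0.42 in intercaruncular tissue of pregnant cows, and that of the stromal list from 0.01 to 1.17 and from -0.55 to 0.30. The part of cell makeup in the subunit differences was not tested.

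Some genes around the chain differed between the tissues by more than any subunit. SLC25A3, the phosphate carrier, was higher in caruncular tissue by 1.55 in cyclic (adjusted p = 9.95e-05) and by 1.44 in pregnant cows, and VDAC3 by 0.23 and 0.19, while CKMT2 was lower by 0.44 and 0.55. Of the biogenesis regulators 9 of 20 probes were higher and 2 lower in cyclic cows and 9 higher and 4 lower in pregnant cows. The shares of all probes were 16.3% higher and 17.2% lower in cyclic cows and 23% and 25.5% in pregnant cows. SIRT1 was higher by 0.46 and 0.42 and MTERF by 1.03 and 0.88. PPARGC1A, the coactivator known to drive mitochondrial biogenesis, was higher at both of its called probes, by 0.97 and 0.73 in cyclic and by 0.97 and 0.63 in pregnant cows. TFB1M was lower by 0.38 and 0.39, PPARD by 1.15 and 0.92 and SIRT3 by 0.35 in pregnant cows. The assembly factors had 2 probes higher and 3 lower in cyclic and 3 higher and 5 lower in pregnant cows, with ATPAF1 at 0.70 and 0.65 and OXA1L at -0.40 and -0.42. The citrate cycle list had 4 higher and 7 lower, and 5 higher and 5 lower, with DLAT at 0.54 and 0.79, OGDH at -0.80 and -0.37 and PC at -0.39 and -0.53. In glycolysis only GAPDH probes were called, 1 higher in cyclic and 2 higher in pregnant cows.

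With a large embryo, most subunits lay above the level seen with a small embryo, by little and with few calls. In caruncular tissue 59 of 70 members were above 0 (53.7% of all probes), with a median difference of 0.11 against 0.01 over all probes tested. Leaving out 1 cow moved that median between 0.04 and 0.16, with 0.04 without a sub-fertile cow that carried a large embryo and 0.07 without a sub-fertile cow with a small one. No member was called, against 0% of all probes, and by limma 0 members had an unadjusted p under 0.05, where 6.9% of all probes did. The 2 members with the smallest p were COX7B, a small subunit of complex IV (0.29, interval -0.05 to 0.64, adjusted p = 0.755), and NDUFB10 (0.12, interval -0.03 to 0.28, adjusted p = 0.777). In intercaruncular tissue 61 of 70 members were above 0 (48.3% of all probes), with a median of 0.18 against -0.01. There 1 member was called, against 3.69% of all probes, and 19 had an unadjusted p under 0.05, where 21.6% of all probes did. The members were measured in the same 12 cows, so these counts are not counts of independent observations.

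NDUFS1, which carries iron-sulphur clusters of complex I, was the member called. Its levels in the 5 cows with a small embryo were -0.68, -0.47, -0.42, -0.40 and -0.35 in intercaruncular tissue, and in the 7 with a large embryo they ran from -0.27 over -0.01 to 0.17. All 7 lay above all 5. The difference was 0.41 (SE 0.10, interval 0.20 to 0.62, adjusted p = 0.0441), close to the threshold, and it was not called when any cow other than the pregnant one of the third scan date was left out.

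That cow decided how many members were called. The median level of its 70 members in intercaruncular tissue was -0.42, below each of the 5 small-embryo cows (-0.28 to -0.08), while the other 6 large-embryo cows lay between -0.0007 and 0.18. Without it 18 members were called, all higher with a large embryo, against 12.8% of all probes called and 7.13% called higher. The median difference of the members was then 0.26, and 63 of 70 were above 0. Of the 18 there were 9 in complex I, 2 in complex III, 5 in complex IV and 2 in complex V, with differences from 0.26 to 0.68. A fixed term for each slide takes the same cow out, since no other pregnant cow's intercaruncular sample lay on its slide, and so is no second look at all 12 cows. With it 16 were called, all higher, against 7.39% of all probes called and 4.43% called higher. Their largest differences were 0.62 in COX5A, a matrix-facing subunit of complex IV, 0.57 in ATP5J2, 0.55 in COX6B and 0.52 in NDUFB9. By signal the COX5A probe lay at the percentile 96.8 of the probes tested. Those of ATP5J2, COX6B and NDUFB9 were dimmer, at 4.1, 18.8 and 47.4. The leave-out was chosen among all cows that were left out in turn, and this cow is also 1 of the 2 scanned on the third date.

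**Figure D5:**
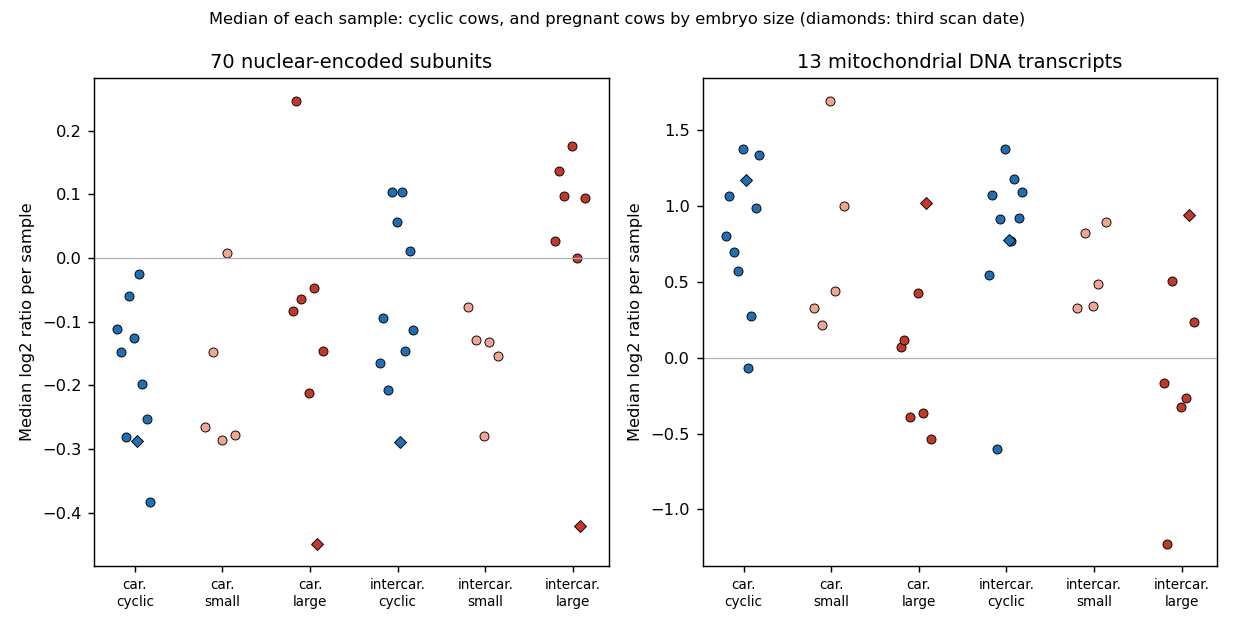
Median log2 ratio to the pool of the 70 nuclear subunits and of the 13 transcripts of mitochondrial DNA in every sample, for cyclic cows and cows with a small or a large embryo, in both tissues, with diamonds for samples of the third scan date. In intercaruncular tissue the nuclear median lies between -0.28 and -0.08 with a small embryo and between -0.42 and 0.18 with a large one, and the mitochondrial median lies between -0.60 and 1.37 in cyclic cows.

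The 3 slides per tissue that held both embryo sizes leave out the cow of the third scan date in both tissues. Within them 53, 60 and 65 of 70 members were above 0 in intercaruncular tissue, where 7186, 7130 and 7056 of 14690 probes were. In caruncular tissue 43, 32 and 61 members were, where 7363, 8103 and 7043 of all probes were. Among fertile cows 63 of 70 members were above 0 in intercaruncular and 53 in caruncular tissue. Their median differences were 0.31 and 0.09, against -0.01 and 0.02 over all probes. Among sub-fertile cows, which include the cow of the third scan date, 49 and 58 were above 0. There the medians were 0.09 and 0.14, against -0.01 and -0.02 over all probes. Transcripts of mitochondrial DNA lay the other way, with 0 of 13 above 0 for large against small embryo in both tissues, medians of -0.63 and -0.57 and none called. They did much the same by fertility label. For fertile against sub-fertile cows 1 of 13 was above 0 in caruncular and 0 in intercaruncular tissue, with medians of -0.58 and -0.56 and none called.

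Markers of other cells also differed between the embryo sizes. Of all probes 3.69% were called in intercaruncular and 0% in caruncular tissue. In intercaruncular tissue 1 of 7 endothelial probes was called, PECAM1, lower with a large embryo (-0.93, adjusted p = 0.0382), and 1 of 11 stromal probes, COL3A1, also lower (-0.92, adjusted p = 0.0492). None of 8 smooth muscle probes was called, with a median of -0.55 and with values of -0.91 in ACTA2 (adjusted p = 0.0866) and -0.85 in CNN1 (adjusted p = 0.0718). None of 9 epithelial probes was called, with a median of 0.10. Their values went both ways, from -0.49 in FOXA2 (adjusted p = 0.251) to 0.90 in CLDN4 (adjusted p = 0.185). KRT8, with the smallest p of the list, was higher in 7 of 7 large-embryo cows than in every small-embryo cow (0.26, adjusted p = 0.066). The mean level of the smooth muscle list ran from -1.49 to -0.35 with a large and from -0.62 to 0.14 with a small embryo, and that of the endothelial list from -0.57 to 0.13 and from -0.11 to 0.09. For the stromal list these were -0.55 to 0.30 and -0.21 to 0.07, and for the epithelial list -0.12 to 0.42 and -0.28 to 0.08. In caruncular tissue no probe of these 4 lists was called. The part of these cells in the subunit differences was not tested.

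By fertility label no member was called in either tissue, against 0% of all probes in caruncular and 0.0477% in intercaruncular tissue. At an unadjusted p under 0.05 there were 2 members by limma in caruncular tissue (13.8% of all probes) and 6 in intercaruncular tissue (13.6% of all probes). The median difference of fertile less sub-fertile cows was 0.08 in both, against -0.03 and 0.01 over all probes tested, and 46 and 50 of 70 members lay above 0 (45% and 51.7% of all probes). When 1 cow was left out the median ran from 0.02 to 0.16 in caruncular and from 0.01 to 0.13 in intercaruncular tissue, lowest in both without the pregnant cow of the third scan date. It was 0.16 and 0.13 without another sub-fertile cow with a large embryo, and in intercaruncular tissue 0.13 without a fertile cow with a small embryo and 0.02 and 0.05 without either of 2 fertile cows with a large one. The smallest p values in caruncular tissue belonged to ATP5O (0.43, interval 0.16 to 0.70, adjusted p = 0.277) and ATP5F1, the b subunit of the ATP synthase stalk (0.47, interval 0.09 to 0.84, adjusted p = 0.305). In intercaruncular tissue they belonged to ATP5F1 (0.39, interval 0.06 to 0.71, adjusted p = 0.298) and NDUFA8 (0.27, interval 0.03 to 0.51, adjusted p = 0.322). In complex II SDHC had values of 0.31 (adjusted p = 0.364) and 0.40 (adjusted p = 0.339), and the other 3 lay between -0.06 and 0.26. With 6 cows a label, intervals of this width leave room for differences in either direction in most members.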

How the data were processed

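Per the file headers, the authors scanned each 2-colour array with Agilent Feature Extraction 9.5.3.1, which gave background-subtracted, dye-normalised signal intensity in both channels and their log10 ratio of Cy5 over Cy3. Here the deposited log10 ratio of each spot was turned to log2, spots of a probe were averaged without those marked as outliers, and each array was centred on its median. The intensity of the Cy5 channel served the filter and the ranking by signal. The authors also deposited a table of normalised log2 values, which was used only as an alternative. It differed from the values used here by an SD of 0.028 to 0.094 over an array.

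Probes were tested when at least a share of 0.5 of their spots were well above background and the signal was at least 80 in at least 22 samples (14690 of 21475 probes). The 48 arrays were reduced to 44 samples by averaging the repeats of 4 cows. In fits with the slide as a block, such an average was placed on the slide of its first array. Comparisons were fitted in limma 3.58.1 (R 4.3.3) with lmFit and eBayes, p-values were adjusted by Benjamini-Hochberg over all probes tested, and a member was called at an adjusted p under 0.05. Each comparison used only its own groups, and the interaction used all 44 samples. The cow is the replicate, and both tissues came from the same animals. The correlation of a cow's deviations in the 2 tissues was 0.11 to 0.869 with a median of 0.613, above 0.1 in 22 of 22 cows. The main tissue and interaction fits had no term for cow and so did not use this pairing. Their SEs, intervals and p-values treat the 2 tissues of a cow as independent. Fits with the cow as a block were run as alternatives. Direction followed the dyes in the labels. Control spots were left out, and precision is limited by the number of arrays.

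The members and the gene lists were chosen with earlier results of these data known. Genes were named by rule: up to 15 members per direction by smallest p in the pregnancy and tissue comparisons, up to 5 in the others or the 2 with the smallest p where none passed, every SDH subunit, the isoform pairs, and up to 3 per direction from each list of related genes. Other genes named, among them markers, mitochondrial transcripts and members called in alternative fits, were chosen after their values were seen. By accession 63 of the 72 members matched the RefSeq gene table of assembly ARS-UCD2.0, and 16 carry a newer symbol there. Names on the array are used in the text. Probe sequences came from the study's list of probes. The fits were tested on simulated data. Alternatives covered background correction (normexp with an offset of 50), no centring or centring in 5 bins of signal, and the filter. They also covered slide, scan date and cow as blocks, the methods' t-test and the deposited table. Each cow was left out in turn for embryo size and fertility only, not for pregnancy or tissue. Values of some genes that the rule named are not reported here.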

Additional observations from a re-analysis of the deposited data

Results flagged for a closer look

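In 7 of 58 groups of values checked, 1 cow lay far from the others of its group. The groups were of members called in these data and of medians of the members, measured in the same cows. They are not independent, so their number cannot be set against a rate expected by chance. In 6 of them it was the cyclic cow scanned on the third date. In intercaruncular tissue of cyclic cows ATP5O was at -0.05 with the nearest other cow at 0.37, NDUFB7 at -0.87 with the nearest at -0.20, NDUFS5 at -0.06 with the nearest at 0.28 and NDUFS6 at -1.22 with the nearest at 0.00. In caruncular tissue of cyclic cows NDUFB2 was at 0.45 with the nearest at 0.08, and NDUFV3 at -0.52 with the nearest at -0.24. In the group of large embryos the median of the members in intercaruncular tissue was -0.42 in the pregnant cow scanned on the same date, with the nearest at 0.00. The part of the scan date in these values was not tested, since each of the 2 cows was scanned only then.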

How the results depend on the processing

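Counts of called members moved most with slide and scan date. With the slide as a random block they were 4 for pregnancy in caruncular and 1 in intercaruncular tissue, 4 and 6 for tissue in cyclic and pregnant cows, and 2 for embryo size in intercaruncular tissue. As a fixed block the slide gave 0 and 0 for pregnancy and 16 for embryo size, where it takes out the pregnant cow of the third scan date. Without the cows of the third scan date, a choice made after seeing the data, they were 19 and 11 for pregnancy. The repeated caruncular samples stayed in that fit as averages of both arrays. In intercaruncular tissue the pregnancy count was 8 with the scan date as a fixed block and 8 in the fit over all 44 samples.

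The replicate block, which pairs the tissues by cow, gave 30 members in cyclic and 32 in pregnant cows as a fixed block and 30 and 29 as a random block, and the interaction had 0 members with it. The arrays of the third scan date were also fitted alone, in a single fit of tissue with a term for state. It gave a single difference per member for both states, and 0 members were called. That difference was opposite in sign to the call in cyclic cows for NDUFB7 (0.18), NDUFS6 (0.39), NDUFA2 (-0.090), NDUFS5 (0.14), NDUFB5 (-0.0022), COX8 (0.056), ATP5O (0.042), NDUFB8 (0.071) and ATP5J (0.063). It was also opposite to the call in pregnant cows for NDUFB7, NDUFS6, NDUFS5, NDUFB5, COX8 and ATP5O. The same held there for ATP5I (0.48), NDUFA1 (0.19) and NDUFC1 (0.10). The cause was not tested, and this fit rests on 2 cows with both tissues and the repeated caruncular samples.

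For embryo size in intercaruncular tissue the count was 0 without the filter, 0 by the methods' t-test after adjustment and 5 with fertility as a term, and from 0 to 18 when 1 cow was left out, the 18 without the pregnant cow of the third scan date. Leaving out 1 cow gave 0 throughout for embryo size in caruncular tissue and for fertility. No other change of sign was seen among the alternatives run. The filter, which joins signal over background with a minimum signal, left 2 of the 72 members untested. UQCRB, above background in 26 samples, failed it on the minimum signal.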
